A study of Mus musculus with 298 samples.

Results

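The cells described here are the 4 cells from mouse thoracic sympathetic ganglia, sequenced singly, whose celltype identifier was Glutamatergic and the 16 whose identifier was Ach1 (8 cells) or Ach2 (8 cells), together called cholinergic, 20 of the 298 cells of the series. They were chosen by that label alone and not by a measured value. All 298 cells came from mice that carried Wnt1-Cre and the R26R-Tomato reporter, in which Cre made under Wnt1 control marks cells descended from the neural crest, and the labels gave no treatment. Ganglia were dissociated with enzymes, cells were caught on a microfluidic chip, and polyadenylated RNA of capture sites judged by eye to hold 1 healthy cell was sequenced. The Glutamatergic cells came from males of postnatal day 29 (P29, 2 cells, called a and b) and from females of P31 (1 cell) and P33 (1 cell). The cholinergic cells came from P16 females (2 cells), P29 males (5), P30 females (2), a P30 male (1), P31 females (2), a P33 female (1) and P38 males (3). The 193 cells labelled Noradrenergic1 to Noradrenergic5, from P11 to P38 of both sexes, served as the background measured in the same way, and the 85 cells labelled Unclassified were used only to count cells with a given gene.

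Most neurons of these ganglia release noradrenaline, which they make from tyrosine by way of dopamine, load into vesicles with Slc18a2 and take back up with Slc6a2. A minority are cholinergic: they make acetylcholine with Chat, load it with Slc18a3, take up choline with Slc5a7, and are known for their supply of sweat glands and periosteum and for the peptide Vip. Glutamate is loaded into vesicles by the Slc17 transporters. Slc17a6 together with the peptides of Calca (CGRP) and Tac1 (substance P) is best known in peptidergic sensory neurons of the dorsal root ganglia, which also descend from the neural crest.

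The labels named no animals and did not say how an identity was assigned. All cells of the same sex and age were therefore treated as 1 collection, and the collection was the replicate. If the identities were drawn from these same transcriptomes, p-values for the genes that define them are no independent evidence, and all p-values measure only the spread between these collections. Counts of each identity were summed within a collection, which gave 14 libraries of the 20 cells. Glutamatergic cells were in 3 collections, each of which also held cholinergic cells, and cholinergic cells were in 7. In parentheses before an adjusted p, a value is the log2 fold change. Levels are counts per 10000 counts of the cell or of the summed cells of its kind in a collection, and a mean ± SD is over collections.

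The 4 Glutamatergic cells held 22547, 18310, 28964 and 51100 counts in the order P29 male a, P29 male b, P31 female and P33 female, in which all values of the 4 cells are given below. The 16 cholinergic cells held 13927 to 64428 counts (median 32937). With every cell thinned to 13927 counts the Glutamatergic cells had 4128 to 4651 genes with a count and the cholinergic cells 4014 to 4837. A gene without a count in the 4 Glutamatergic cells together was under 0.248 counts per 10000, and in the 16 cholinergic cells together under 0.0552, where 3 counts are the upper limit that a count of 0 allows. These limits cover counting error only. The titles carried a number before the well position, whose meaning the labels did not give. The 4 Glutamatergic cells carried 4 different numbers, and 2 of these numbers were shared with cholinergic cells.

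Among the 20 cells, 1 of each kind stood apart before any comparison. The Glutamatergic P33 female cell had the highest total of the 53 cells of its collection (median 27447) and held 555 counts of Npy and 130 of Th, against 0 to 3 counts of each in the other 3 Glutamatergic cells. The Ach1 P31 female a cell held 586 counts of Npy, 61 of Th and 63 of Slc6a2 but 0 of Chat and 0 of Slc18a3. Both were the highest of their label for Npy, whereas 3 other Ach1 cells held 33 to 57 counts of Th. Values without these cells or their collections are given beside the noradrenergic genes and lists below, and whether a second cell or its RNA was present in either capture was not tested.

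The 5 genes that mark the kinds separated the labels in every cell with few exceptions. The vesicular glutamate transporter Slc17a6 had 4, 7, 19 and 4 counts in the Glutamatergic cells and 0 counts in the 16 cholinergic, the 193 noradrenergic and the 85 Unclassified cells. Tac1 had 154, 24, 142 and 122 counts, against 0 in every cholinergic cell and a count in 2 noradrenergic cells. Calca had 189, 325, 437 and 313 counts and was also present, at 1 to 40 counts, in 11 of the 16 cholinergic cells. Vip had 6, 0, 0 and 0 counts in the Glutamatergic cells and 59 to 1422 counts in the 16 cholinergic cells. The choline transporter Slc5a7 had 0, 1, 0 and 0 counts, against 1 to 106 counts in the cholinergic cells. With all cells thinned to 13927 counts, Slc17a6, Tac1 and Calca were still present in 4 of 4 Glutamatergic cells, and Vip was present in 16 of 16 and Slc5a7 in 14 of 16 cholinergic cells. At that depth Calca was also in 8 of 16 cholinergic cells, and Vip and Slc5a7 were each in 1 of 4 Glutamatergic cells. Chat, which was not among the 5, had 0 counts in 5 of the 16 cholinergic cells, including the Ach1 P31 female a cell.

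**Figure D1:**
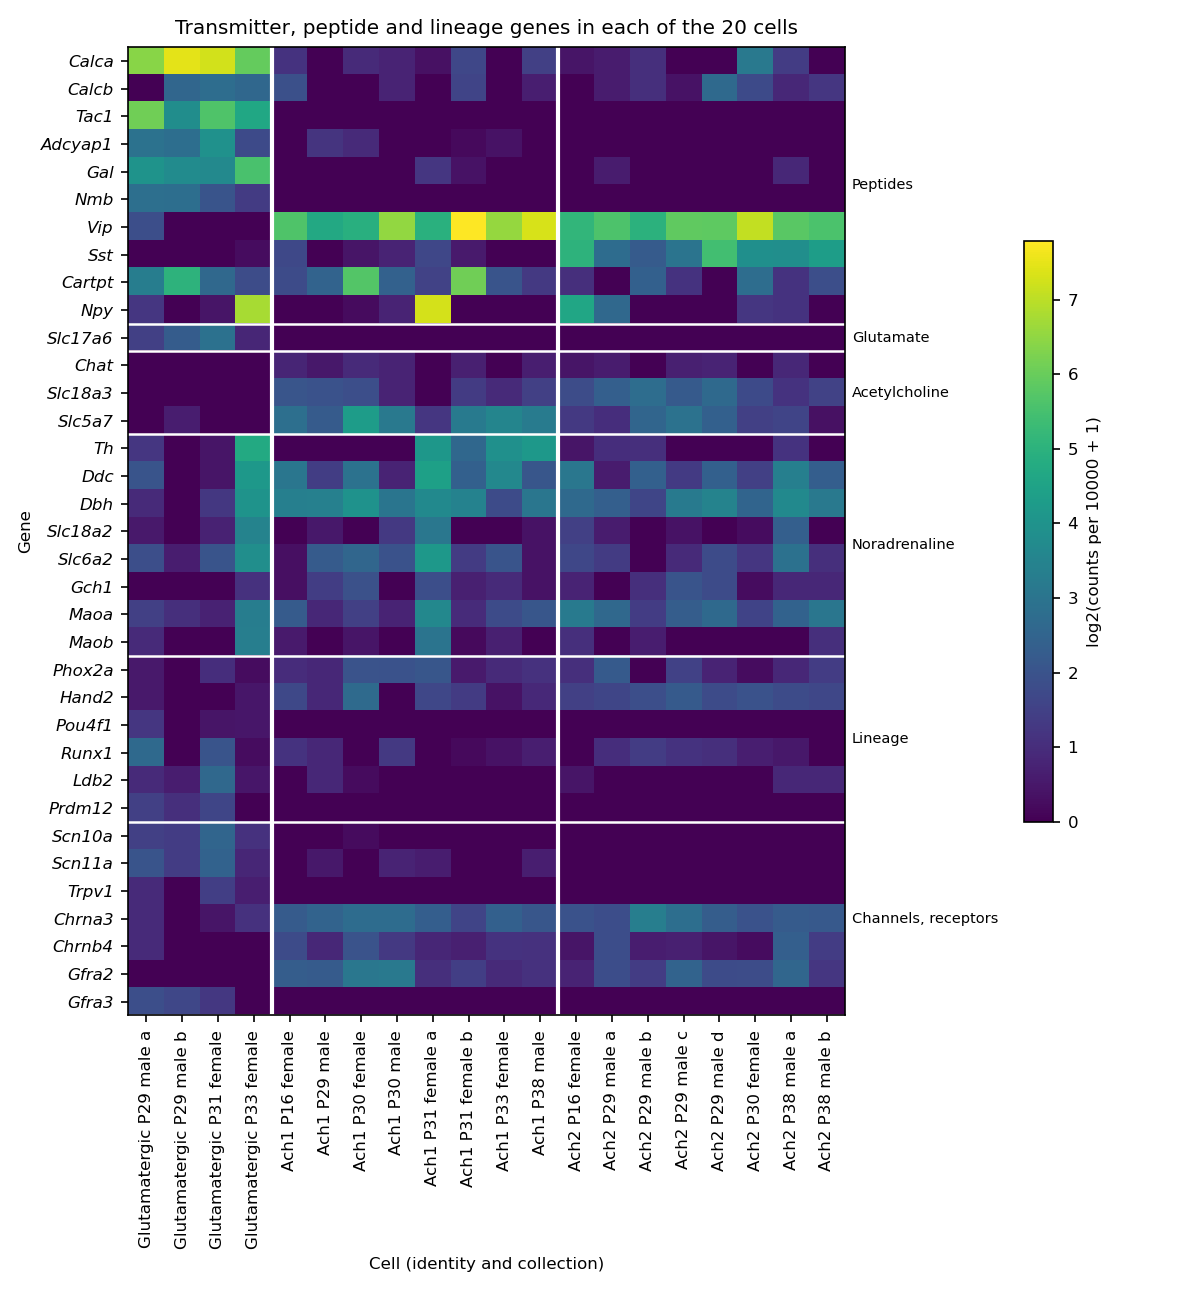
Levels of transmitter, peptide and lineage genes (vertical axis) in each of the 20 cells (horizontal axis: 4 Glutamatergic, 8 Ach1 and 8 Ach2 cells), drawn as log2(counts per 10000 + 1). Brighter colours are higher levels. Slc17a6, Tac1 and Nmb are above 0 only in the 4 Glutamatergic columns, and Vip is above 0 in all 16 cholinergic columns. Most noradrenaline genes are bright in the Glutamatergic P33 female and the Ach1 P31 female a cell.

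In the comparison of Glutamatergic with cholinergic cells, edgeR's quasi-likelihood test was run on 7856 genes and called 123 at an adjusted p under 0.05. Of these, 90 were higher in Glutamatergic cells (1.15% of the genes tested) and 33 were lower (0.42%). At an unadjusted p under 0.05 there were 720 genes. Over all genes tested the log2 fold change had a median of -0.03. Each SE printed beside a log2 fold change is derived from the F value of its test and adds no information on spread. The number of calls was 38 with DESeq2, 51 with the collection as a replicate block, 41 without the P29 male collection and 59 without the P31 female collection. All 43 called genes that the rule for naming genes chose kept their direction in every alternative fit, and 12 kept their call in all of them: Calca, Tac1, Vip, Adcyap1, Gal, Slc18a3, Slc5a7, Scn10a, Scn11a, Gfra2, Bdnf and Pdlim3. A gene with a count in only the Glutamatergic or only the cholinergic cells passed the filter on low counts through those cells alone. Its direction was therefore fixed in advance, and its p-value is no independent evidence of it. On the Glutamatergic side this held for Tac1, Nmb, Slc17a6, Gfra3, Trpv1, Pcp4l1, Cyp1b1 and Prdm12, among others. On the cholinergic side it held for Slc18a3, Gfra2, Pdlim3 and Hoxc8, among others. Of 10 neuropeptide precursors tested, 6 were higher in Glutamatergic cells (Calca, Calcb, Tac1, Adcyap1, Gal and Nmb), 2 were lower (Vip and Sst), and Cartpt and Npy did not pass the test.

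Neuropeptide genes of both kinds are shown first by their promoters, because several are known targets of transcription factors that act downstream of cyclic AMP. The letters TGACG, read on either strand and known as the core of the cyclic AMP response element, were searched in the 250 bases before the RefSeq gene start (GRCm38.p6), and they are in capitals in the last 120 of those bases below. In these windows a TGACGTCA match is also a TGACG match.
Calca (chr7:114636358-114636477, minus strand): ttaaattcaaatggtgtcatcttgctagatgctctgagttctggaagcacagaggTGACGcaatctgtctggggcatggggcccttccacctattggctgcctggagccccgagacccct
Tac1 (chr6:7554941-7555060, plus strand): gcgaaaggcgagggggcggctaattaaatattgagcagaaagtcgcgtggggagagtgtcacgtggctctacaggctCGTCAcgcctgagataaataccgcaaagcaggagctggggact
Adcyap1 (chr17:93198897-93199016, plus strand): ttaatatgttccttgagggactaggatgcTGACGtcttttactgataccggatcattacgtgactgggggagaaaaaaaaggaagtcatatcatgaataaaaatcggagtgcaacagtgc
Vip (chr10:5639098-5639217, plus strand): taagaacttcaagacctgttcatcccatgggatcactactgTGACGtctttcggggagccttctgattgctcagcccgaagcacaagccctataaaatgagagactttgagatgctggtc
Sst (chr16:23890845-23890964, minus strand): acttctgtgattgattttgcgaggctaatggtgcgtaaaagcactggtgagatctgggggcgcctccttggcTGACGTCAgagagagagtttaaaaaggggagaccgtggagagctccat
Cartpt (chr13:99900684-99900803, minus strand): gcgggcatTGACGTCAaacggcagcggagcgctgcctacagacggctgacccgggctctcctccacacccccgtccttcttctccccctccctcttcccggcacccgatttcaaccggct
The first 3 genes were higher in Glutamatergic cells, the next 2 were higher in cholinergic cells, and Cartpt was present in both. The match lay 65 bases before the start of Calca, 79 before that of Vip and 91 before that of Adcyap1, and Tac1 had matches at 197 and 43 bases. Sst and Cartpt held the whole palindrome. Of the 17 neuropeptide precursors with a count in the 20 cells, 15 had a promoter in the table, and 7 of those 15 (46.7%) held TGACG against 19.8% of all 27025 genes. The palindrome TGACGTCA was in 2 of the 15 (13.3%) against 1.77% of all genes. No match was found for Gal, Nmb, Npy, Adm, Nppb, Pdyn, Pomc or Pthlh, and the seventh gene with a match was Nmu. A match describes these letters and not a site in use, and it was found among peptides of both kinds.

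Calca, whose transcript gives CGRP or calcitonin, stood at 83.8, 178, 151 and 61.3 counts per 10000 in the 4 Glutamatergic cells and at 0 to 7.8 (median 0.62) in the 16 cholinergic cells. Every Glutamatergic cell was above every cholinergic cell, as for 25 of the 7856 genes tested (0.318%). The mean over collections was 113 ± 46.2 (SD, n = 3) in Glutamatergic and 1.22 ± 1.4 (SD, n = 7) in cholinergic cells, and the log2 fold change was 6.16 ± 0.53 (SE) with an edgeR adjusted p of 2.63e-27. Among cholinergic cells the Ach2 P30 female cell had the most, 40 counts, or 7.8 counts per 10000. Cholinergic cells were in turn above noradrenergic cells, whose mean was 9.07e-04 ± 0.00287 (SD, n = 10), by an estimated log2 difference of 6.84 ± 0.52 (SE) (edgeR adjusted p = 7.35e-37). Calcb, which gives a second CGRP peptide, had 0, 9, 17 and 26 counts in Glutamatergic cells and a count in 11 of 16 cholinergic cells, an estimated log2 difference of 1.95 ± 0.48 (SE) (edgeR adjusted p = 0.00558). Calcb lost its call in 14 of 24 alternative fits. Calca and Calcb are near copies on chromosome 7, and reads that the authors' counting could not tell apart would make the smaller of them, Calcb, uncertain.

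Tac1, the precursor of substance P, stood at 68.3, 13.1, 49 and 23.9 counts per 10000 in the 4 Glutamatergic cells. The cholinergic cells held 0 counts of Tac1 among 543664, so that the pooled Glutamatergic level was at least 662-fold higher than the upper limit of 3 counts over the whole group, with a fitted log2 fold change of 10.46 ± 0.72 (SE) and an edgeR adjusted p of 8.97e-44. Adcyap1, the precursor of PACAP, had 15, 11, 42 and 12 counts in Glutamatergic cells. A count of it was seen in 4 of 16 cholinergic cells, all of them Ach1 and with at most 5 counts, and the log2 fold change was 6.18 ± 0.62 (SE) (edgeR adjusted p = 6.41e-20). Nmb, the precursor of neuromedin B, had 14, 11, 9 and 8 counts against 0 in the cholinergic cells, at least 62.9-fold higher (edgeR adjusted p = 7.27e-16). All 4 Glutamatergic cells thus held the transcripts of these 3 peptides in addition to Calca. Tac1 and Nmb passed the filter on low counts through Glutamatergic cells alone, so their differences could only be higher. Nmb overlaps Sec11a on the same strand, which leaves its counts uncertain, and its call was lost with DESeq2 (adjusted p = 0.848).

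Gal, the precursor of galanin, was a peptide that Glutamatergic and noradrenergic cells had in common and that cholinergic cells lacked. It stood at 15.1, 12.6, 11.7 and 46.2 counts per 10000 in the 4 Glutamatergic cells, the last being the P33 female cell. In noradrenergic cells the mean was 18.7 ± 11.4 (SD, n = 10), and in cholinergic cells it was 0.14 ± 0.254 (SD, n = 7), with a count in 4 of 16 cells and at most 5 counts. The log2 fold change of Glutamatergic over cholinergic cells was 7.12 ± 0.56 (SE) (edgeR adjusted p = 1.51e-33), and 5.95 without the P33 female cell (edgeR adjusted p = 4.71e-23). Against noradrenergic cells the Glutamatergic cells did not pass the test for Gal (0.97, edgeR adjusted p = 0.47), whereas the cholinergic cells were lower (-5.49, edgeR adjusted p = 2.96e-07). Both comparisons share the noradrenergic libraries.

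Vip and Sst marked the cholinergic side. Vip, the precursor of vasoactive intestinal peptide, stood at 25 to 221 (median 51.9) counts per 10000 in the 16 cholinergic cells and at 2.66, 0, 0 and 0 in the 4 Glutamatergic cells. The lowest cholinergic cell was above the highest Glutamatergic cell, as for 12 of the 7856 genes tested (0.153%). The log2 difference was -7.18 ± 0.95 (SE) with an edgeR adjusted p of 3.84e-11, and Vip was lower in all 3 collections that held both kinds. In the P29 male a cell, 1 of 4 Glutamatergic cells, 6 counts of Vip were seen. Sst, the precursor of somatostatin, was seen in 13 of 16 cholinergic cells and had 0, 0, 0 and 1 counts in the Glutamatergic cells, an estimated log2 difference of -5.08 ± 1.00 (SE) (edgeR adjusted p = 8.66e-05). Sst was mostly an Ach2 gene, with 7 to 119 counts in Ach2 and 0 to 9 in Ach1 cells, and its call was lost against Ach1 alone (edgeR adjusted p = 0.401).

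Cartpt, the precursor of the CART peptides, had a count in most cells of both kinds. It had 20, 58, 15 and 13 counts in the Glutamatergic cells and a count in 14 of 16 cholinergic cells, from 3 to 438 in those 14, whereas 18 of 193 noradrenergic cells had one. The groups overlapped, with means of 8.94 ± 8.89 (SD, n = 3) in Glutamatergic and 12.4 ± 17.2 counts per 10000 (SD, n = 7) in cholinergic cells, and they did not pass the test (0.36 ± 1.03 (SE), edgeR adjusted p = 0.995). The spread in cholinergic cells came mainly from 2 Ach1 cells, P30 female with 291 and P31 female b with 438 counts. Against noradrenergic cells, at 0.0628 ± 0.0731 (SD, n = 10), Glutamatergic cells were higher by 8.52 ± 0.87 (SE) (edgeR adjusted p = 3.54e-07) and cholinergic cells by 7.81 ± 0.70 (SE) (edgeR adjusted p = 1.23e-08), 2 comparisons that share the noradrenergic libraries. Npy, the precursor of neuropeptide Y, did not pass the test between the 2 kinds (2.50, edgeR adjusted p = 0.868). Apart from the Glutamatergic P33 female cell with 555 and the Ach1 P31 female a cell with 586 counts, Npy reached at most 3 counts in Glutamatergic and 65 in cholinergic cells, against 114 ± 38.8 counts per 10000 (SD, n = 10) in noradrenergic cells. Without these 2 cells the log2 fold change between the kinds was -0.46 (edgeR adjusted p = 0.968), and without the P31 female collection it was 6.08 (edgeR adjusted p = 0.00488).

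**Figure D2:**
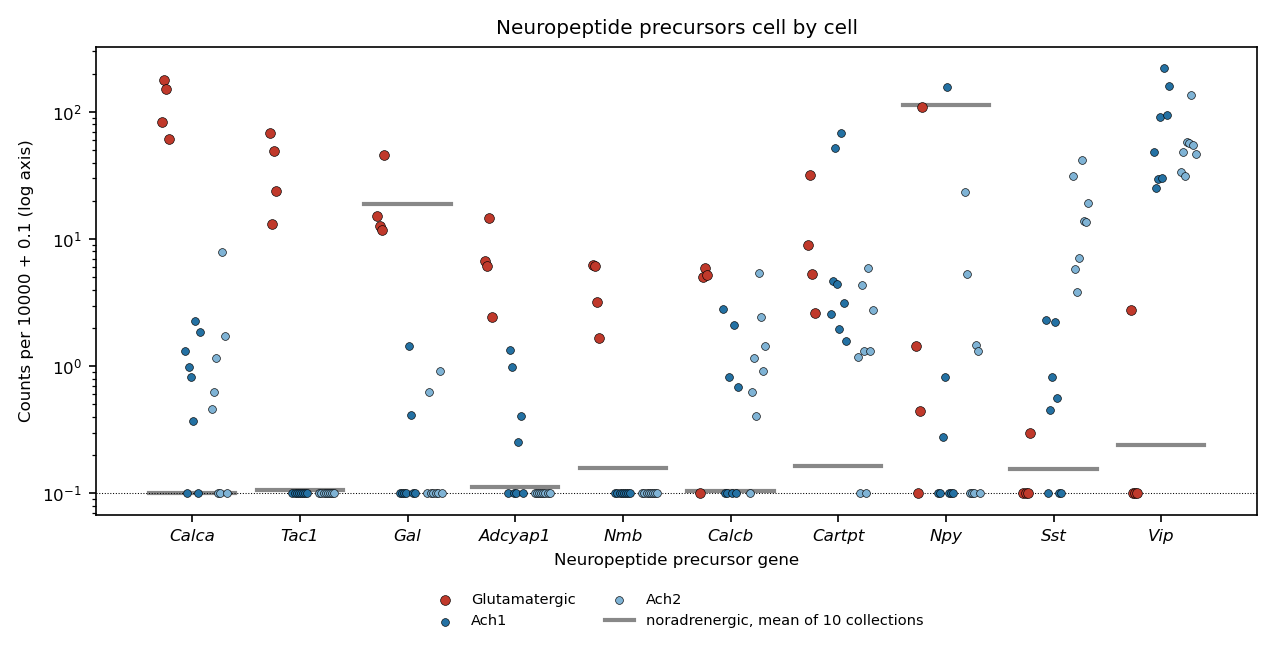
Counts per 10000 plus 0.1, on a log axis, of neuropeptide precursor genes in each Glutamatergic, Ach1 and Ach2 cell (points), with the mean of the 10 noradrenergic collections as a line. Calca, Tac1, Adcyap1, Gal and Nmb lie higher in the 4 Glutamatergic cells, Vip lies higher in all 16 cholinergic cells, and Cartpt overlaps between the kinds at levels above the noradrenergic mean of 0.0628 ± 0.0731 (SD, n = 10).

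Measured against noradrenergic cells in the fit of all named identities, 6 of 15 neuropeptide precursors were higher in Glutamatergic cells and 0 were lower (Calca, Calcb, Tac1, Cartpt, Adcyap1 and Nmb), where 1.62% of 11555 genes were called higher and 1.01% lower. In cholinergic cells 5 of the 15 were higher (Calca, Calcb, Vip, Sst and Cartpt) and 3 were lower (Gal, Adm and Pthlh), where 2.17% of 11555 genes were called higher and 2.4% lower. Calca, Calcb and Cartpt were therefore named in both comparisons, which share the noradrenergic libraries. Over all genes tested the median was -0.39 in the first and -0.20 in the second comparison. Scaled by RLE size factors in place of TMM, those medians were 0.02 and -0.04. The split of calls depended on this scaling: 187 higher and 117 lower genes in Glutamatergic cells became 291 higher of 337 called, and 251 higher and 277 lower genes in cholinergic cells became 338 higher of 557 called.

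Of the genes of the 2 transmitters, 3 transporters and no enzyme were called between the kinds. Among 7 genes of glutamate handling tested between the kinds, Slc17a6 alone was called, beside 1.15% of all genes called higher. It stood at 1.77, 3.82, 6.56 and 0.783 counts per 10000 in the 4 Glutamatergic cells, at least 51-fold above the upper limit in cholinergic cells, and the fitted log2 difference was 6.83 ± 0.83 (SE) (edgeR adjusted p = 1.41e-13). The call was lost with DESeq2 (adjusted p = 0.912). Slc17a6 passed the filter on low counts through Glutamatergic cells alone, so its difference could only be higher. The glutamine transporter Slc38a2 (0.15, edgeR adjusted p = 0.997), which brings in the precursor of glutamate in many cells, was seen in 4 of 4 Glutamatergic and 16 of 16 cholinergic cells. Of 5 acetylcholine genes tested, 2 were lower in Glutamatergic cells, beside 0.42% of all genes. The vesicular acetylcholine transporter Slc18a3 was seen in 15 of 16 cholinergic and 0 of 4 Glutamatergic cells (-6.45 ± 1.22 (SE), edgeR adjusted p = 3.38e-05), and its pooled cholinergic level was at least 9.64-fold above the upper limit in Glutamatergic cells. Slc5a7 stood at 0.269 to 18.9 (median 4.5) counts per 10000 in the cholinergic cells and at 0, 0.546, 0 and 0 in the Glutamatergic cells (-5.34 ± 0.97 (SE), edgeR adjusted p = 9.93e-06). Chat, the enzyme that makes acetylcholine, was seen in 11 of 16 cholinergic cells, with at most 5 counts, and in 0 of 4 Glutamatergic cells. It did not pass the test (-4.04, edgeR adjusted p = 0.297). With only 4 cells, 0 of 4 still allows a large share of cells with a count and sets no limit on expression. Slc18a3 lies inside Chat on the same strand, so their counts are uncertain relative to each other. Ache, which breaks acetylcholine down, had a count in all 20 cells (-1.90, edgeR adjusted p = 0.125).

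Several noradrenergic genes were lower in both kinds than in noradrenergic cells, and between the kinds 0 of 14 catecholamine genes were called, with a median log2 fold change of 0.23. At an unadjusted p under 0.05 in edgeR there were 3 of the 14, and DESeq2 also called 0. In Glutamatergic cells 7 of 15 genes of catecholamine synthesis, storage, uptake and breakdown were lower than in noradrenergic cells, beside 1.01% of all genes: Ddc, Dbh, Slc18a2, Slc6a2, Gch1, Cyb561 and Maoa. In cholinergic cells 10 of 15 were lower, beside 2.4% of all genes: Th, Ddc, Dbh, Slc18a2, Slc6a2, Gch1, Qdpr, Cyb561, Maoa and Maob. The list medians were -1.89 and -1.50, beside -0.39 and -0.20 for all genes. Without the Glutamatergic P33 female and Ach1 P31 female a cells, 10 of the 15 were lower in Glutamatergic cells with a median of -4.10, and 10 of the 15 in cholinergic cells with a median of -1.59. Of all 11532 genes in that fit, 197 were lower in Glutamatergic and 385 in cholinergic cells, with medians of -0.62 and -0.26. Between the kinds 2 of 14 were then lower in Glutamatergic cells, beside 50 of all 7487 genes tested. The 2 comparisons with noradrenergic cells share the noradrenergic libraries, and the values below are given side by side.

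Th, whose enzyme sets the rate of catecholamine synthesis, had 3, 0, 1 and 130 counts in the 4 Glutamatergic cells. In the cholinergic cells it was split, with 33 to 61 counts in 4 Ach1 cells (P31 female a and b, P33 female and P38 male), 1 to 3 counts in 4 Ach2 cells and 0 in the other 8. The noradrenergic mean was 26.2 ± 2.9 counts per 10000 (SD, n = 10) and every 1 of the 193 noradrenergic cells had a count. The log2 fold change against noradrenergic cells was -4.34 ± 0.63 (SE) in cholinergic cells (edgeR adjusted p = 1.64e-05) and -2.12 ± 0.83 (SE) in Glutamatergic cells, which did not pass the test (edgeR adjusted p = 0.253). Without the P33 female collection the Glutamatergic value was -5.85 (edgeR adjusted p = 0.00394). At 25.4 counts per 10000 the P33 female cell was within the spread of noradrenergic collections for Th, and the other 3 Glutamatergic cells were at or under 1.33.

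Dbh, which turns dopamine into noradrenaline, stood at 0.887, 0, 1.38 and 14.9 counts per 10000 in the Glutamatergic cells and at 2.12 to 14.8 (median 8.02) in the cholinergic cells, all 16 of which had a count. The noradrenergic mean was 19.7 ± 5.52 (SD, n = 10). Both kinds were lower than noradrenergic cells, with log2 fold changes of -1.49 ± 0.21 (SE) in cholinergic (edgeR adjusted p = 6.93e-11) and -1.89 ± 0.37 (SE) in Glutamatergic cells (edgeR adjusted p = 7.77e-05). Between the kinds Dbh did not pass the test (-0.23, edgeR adjusted p = 0.981), but without the P33 female cell it was lower in Glutamatergic cells (-3.21, edgeR adjusted p = 0.0119). The same held for Cyb561, which supplies electrons to Dbh in the vesicle, at -0.75 (edgeR adjusted p = 0.821) with the P33 female cell and -2.82 (edgeR adjusted p = 0.0358) without it. Dbh and Cyb561 had a count in all 16 cholinergic cells, and in the 3 other Glutamatergic cells Dbh had 2, 0 and 4 counts and Cyb561 3, 1 and 1 counts.

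Ddc, the decarboxylase that makes dopamine, had 7, 0, 1 and 85 counts in the Glutamatergic cells, 1 to 76 counts in the 16 cholinergic cells and a mean of 22.6 ± 4.03 counts per 10000 (SD, n = 10) in noradrenergic cells. Ddc was lower than in noradrenergic cells, at -2.09 ± 0.38 (SE) in Glutamatergic (edgeR adjusted p = 9.83e-06) and -2.23 ± 0.22 (SE) in cholinergic cells (edgeR adjusted p = 3.07e-20). The vesicular monoamine transporter Slc18a2 had 1, 0, 2 and 52 counts and, among cholinergic cells, 28 in the Ach1 P31 female a cell, 10 in the Ach2 P38 male a cell and at most 5 in the others. Slc18a2 was lower at -1.78 ± 0.40 (SE) in Glutamatergic (edgeR adjusted p = 0.00161) and -3.87 ± 0.30 (SE) in cholinergic cells (edgeR adjusted p = 3.37e-27). Without the P33 female collection the Glutamatergic values were -4.63 for Ddc and -5.19 for Slc18a2. The noradrenaline transporter Slc6a2 had 6, 1, 9 and 68 counts and was lower at -2.64 ± 0.39 (SE) (edgeR adjusted p = 6.56e-09) in Glutamatergic and -3.65 ± 0.25 (SE) in cholinergic cells (edgeR adjusted p = 8.24e-45). Its Glutamatergic value was -4.34 without the P33 female collection (edgeR adjusted p = 1.29e-11). Slc6a2 was the catecholamine gene whose call in Glutamatergic cells was kept in all alternatives. Maob, which breaks down amines, had 2, 0, 0 and 46 counts, was lower in cholinergic cells (-3.02, edgeR adjusted p = 4.42e-18) and did not pass the test in Glutamatergic cells (-0.71, edgeR adjusted p = 0.437). Without the P33 female collection Maob was lower in Glutamatergic cells too (-4.43, edgeR adjusted p = 1.88e-06). Maoa, its partner enzyme, had 4, 2, 2 and 45 counts and was lower in both, at -2.04 in Glutamatergic and -2.0 in cholinergic cells (edgeR adjusted p = 1.24e-05 and 4.45e-17), and its Glutamatergic value was -3.93 without that collection (edgeR adjusted p = 7.41e-09).

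The cofactor genes did not all move with these. Gch1, which starts the synthesis of the cofactor of Th, had 0, 0, 0 and 6 counts in Glutamatergic cells and a count in 14 of 16 cholinergic cells, and it was lower than in noradrenergic cells, at -2.78 ± 0.54 (SE) in Glutamatergic (edgeR adjusted p = 5.28e-05) and -1.36 ± 0.25 (SE) in cholinergic cells (edgeR adjusted p = 2.41e-06). Gch1 kept its Glutamatergic call without the P33 female collection, which held those 6 counts (edgeR adjusted p = 3.60e-06). Qdpr was lower in cholinergic cells (-0.93, edgeR adjusted p = 7.87e-04) and did not pass the test in Glutamatergic cells (-0.65, edgeR adjusted p = 0.513). Pts, Spr and Pcbd1, the other enzymes of that cofactor, were called in neither comparison. Slc18a1, the transporter of chromaffin cells, had 3 counts in 1 of the 20 cells. Summed over the list, catecholamine genes stood at 11.4 to 115 counts per 10000 in the 4 Glutamatergic cells, 23 to 113 in the 16 cholinergic cells and a median of 159 in the 193 noradrenergic cells.

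**Figure D3:**
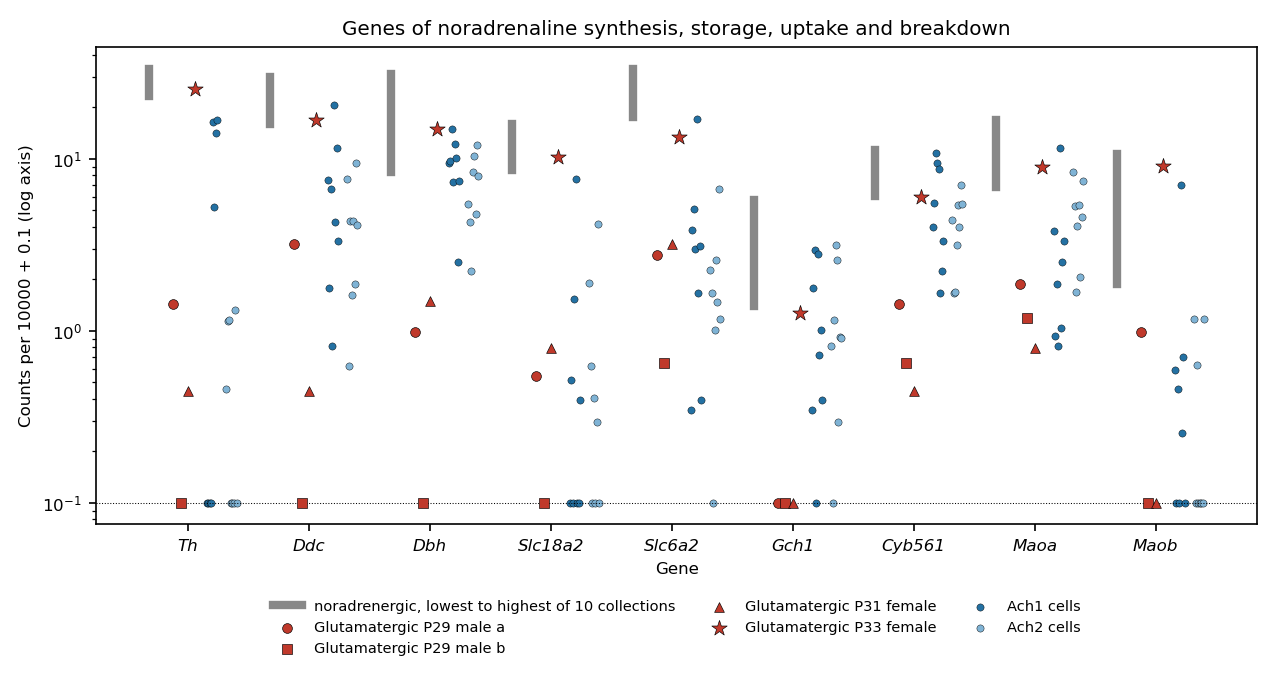
Counts per 10000 plus 0.1, on a log axis, of genes of noradrenaline synthesis, storage, uptake and breakdown, with a marker for each Glutamatergic cell, points for the Ach1 and Ach2 cells and bars for the range of the 10 noradrenergic collections. The Glutamatergic P33 female cell (star) lies near the noradrenergic bars, with Th at 25.4, while the other 3 Glutamatergic cells are at or under 1.33 for Th.

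Lineage factors of sympathetic neurons were set against noradrenergic cells. In Glutamatergic cells 5 of 14 were lower (among them Phox2a, Hand1, Hand2 and Gata3) and 0 were higher, with a list median of -1.43, beside 1.01% of all genes lower and a median of -0.39. In cholinergic cells 8 of 14 were lower (Hand1, Hand2, Gata2, Isl1, Insm2, Tbx20, Hmx1 and Sox4) and Sox11 was higher, with a list median of -0.98, beside 2.4% of all genes lower and a median of -0.20. Scaled by RLE size factors, 1 of the 14 was called in Glutamatergic cells (Hand2) with a list median of -1.04, and 7 were lower in cholinergic cells. With that scaling, 46 of all 11555 genes were lower in Glutamatergic and 219 in cholinergic cells, with medians of 0.02 and -0.04. Hand2, which maintains noradrenergic gene expression, was the only 1 of 10 such factors called between the kinds, beside 0.42% of all genes called lower. It had 1, 0, 0 and 2 counts in the Glutamatergic cells and a count in 15 of 16 cholinergic cells, an estimated log2 difference of -3.0 ± 0.78 (SE) (edgeR adjusted p = 0.0125), and it lost that call in 10 of 24 alternatives. Against noradrenergic cells, at 3.00 ± 0.465 counts per 10000 (SD, n = 10), Hand2 was lower, with -3.71 ± 0.64 (SE) in Glutamatergic (edgeR adjusted p = 1.58e-06) and -0.66 ± 0.21 (SE) in cholinergic cells (edgeR adjusted p = 0.0412). Phox2a, a determinant of autonomic neurons, was lower than in noradrenergic cells in Glutamatergic cells and did not pass the test in cholinergic cells, with -2.23 ± 0.59 (SE) (edgeR adjusted p = 0.0105) and -0.62 (edgeR adjusted p = 0.14). Between the kinds themselves, Phox2a did not pass the test (edgeR adjusted p = 0.516).

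Genes known from sensory neurons were present in the Glutamatergic cells at low counts. The sodium channel Scn10a had 4, 3, 14 and 6 counts, against 1 count in 1 of 16 cholinergic cells and a count in 8 of 193 noradrenergic cells (5.91 ± 0.84 (SE), edgeR adjusted p = 9.78e-10). A second such channel, Scn11a, had 7, 3, 13 and 4 counts and was seen in 4 of 16 cholinergic cells (4.94 ± 0.78 (SE), edgeR adjusted p = 1.03e-07). Both were present in 4 of 4 Glutamatergic cells. The heat and capsaicin receptor Trpv1 had 2, 0, 5 and 3 counts and 0 in every other cell of the series, at least 15-fold above the upper limit in cholinergic cells (edgeR adjusted p = 1.19e-04). Trpv1 passed the filter on low counts through Glutamatergic cells alone, so its difference could only be higher. The ATP receptor P2rx3 had 0, 7, 1 and 0 counts, and its call rested mainly on the P29 male b cell (3.64 ± 0.95 (SE), edgeR adjusted p = 0.0129). P2rx3 overlaps Ssrp1 on the opposite strand, and the strand of counting was not given. These 4 were the called genes among 9 sensory channels and receptors tested, beside 1.15% of all genes called higher. The list median was 1.26 beside -0.03 for all genes. Scn9a, which sympathetic neurons also express, had 9 to 18 counts in the Glutamatergic cells and did not pass the test (-0.12, edgeR adjusted p = 0.997).

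Transcription factors of the sensory lineage had too few counts for most tests. Pou4f3 had 1, 2, 1 and 0 counts in the Glutamatergic cells and 0 in all other cells of the series. Pou4f1 (Brn3a) had 3, 0, 1 and 2 counts and Isl2 0, 1, 4 and 1 counts, each with 0 in cholinergic cells and a count in 1 noradrenergic cell. Pou4f1, Pou4f3 and Isl2 were not tested because they had fewer than 10 counts in the 20 cells. Of 5 tested, Ldb2, which encodes a LIM domain binding protein, was called higher, beside 1.15% of all genes. The list median was 0.05 beside -0.03 for all genes, with 3 of the 5 above 0 and 2 below. Against noradrenergic cells 4 were tested. Runx1 and Ldb2 were called higher in Glutamatergic cells (list median 2.43), beside 1.62% of all genes. Runx1, Shox2 and Ldb2 were called higher in cholinergic cells (list median 3.57), beside 2.17% of all genes. Ldb2 had 2, 1, 15 and 2 counts against a count in 5 of 16 cholinergic cells (3.22 ± 0.71 (SE), edgeR adjusted p = 8.27e-04). Prdm12, a factor of nociceptor development outside the lists, had 4, 2, 6 and 0 counts in Glutamatergic and 0 in all other cells (5.33 ± 0.99 (SE), edgeR adjusted p = 2.11e-05). Of 8 genes chosen with their values known (Slc17a6, Tac1, Calca, Trpv1, Scn10a, Pou4f1, Nmb and Isl2), all 4 Glutamatergic cells held at least 3, and no cholinergic, noradrenergic or Unclassified cell held more than 2. These genes include the markers of the label, so that the outcome follows from the choice and is a description only. The Glutamatergic P33 female cell had counts of Slc17a6, Tac1, Calca, Trpv1, Scn10a, Pou4f1, Nmb and Isl2 beside its noradrenergic transcripts, and 0 counts of Prdm12, Pou4f3, P2rx3 and Gfra3.

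Sympathetic neurons receive their input through nicotinic receptors, and of 6 such genes and chaperones tested between the kinds 1 was lower in Glutamatergic cells, beside 0.42% of all genes. It was Chrna3, which had 2, 0, 1 and 6 counts against 5 to 32 counts in the 16 cholinergic cells (-2.34 ± 0.65 (SE), edgeR adjusted p = 0.0243). Chrna3 lost that call in 7 of 24 alternatives. Against noradrenergic cells, with a mean of 5.48 ± 2.08 counts per 10000 (SD, n = 10), Chrna3 was lower in Glutamatergic cells (-3.08 ± 0.49 (SE), edgeR adjusted p = 1.15e-07), and cholinergic cells did not pass the test (-0.61, edgeR adjusted p = 0.0537). Its partner subunit Chrnb4 had 2, 0, 0 and 0 counts in the Glutamatergic cells and 1 to 17 in the cholinergic cells. It was lower than in noradrenergic cells (-3.41, edgeR adjusted p = 5.71e-04) and did not pass the test between the kinds (edgeR adjusted p = 0.0999). The chaperone Tmem35 was low in both kinds, with 1, 0, 0 and 0 counts in Glutamatergic cells and a count in 5 of 16 cholinergic cells, against 188 of 193 noradrenergic cells. Tmem35 was lower at -4.37 ± 0.87 (SE) in Glutamatergic (edgeR adjusted p = 7.77e-05) and -5.18 ± 0.58 (SE) in cholinergic cells (edgeR adjusted p = 1.14e-16). Chrna6 and Chrnb3, by contrast, had 0, 1, 1 and 2 and 0, 1, 1 and 5 counts in the Glutamatergic cells and 0 in every other cell of the series.

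Of 10 receptors for neurotrophic factors and cytokines tested between the kinds, 1 was higher in Glutamatergic cells (Gfra3), 1 was lower (Gfra2) and 8 did not pass the test. Of all genes, 1.15% were higher and 0.42% lower. Gfra2, the neurturin co-receptor, stood at 0.717 to 7.9 (median 2.5) counts per 10000 in the cholinergic cells, all 16 of which had a count, and at 0 in the 4 Glutamatergic cells (-6.76 ± 1.2 (SE), edgeR adjusted p = 6.93e-06), with a pooled cholinergic level at least 12-fold above the Glutamatergic upper limit. Gfra3, the artemin co-receptor, had 6, 4, 4 and 0 counts in the Glutamatergic cells and 0 in the cholinergic cells (5.51 ± 0.97 (SE), edgeR adjusted p = 5.99e-06), at least 21-fold higher. The P33 female cell was the Glutamatergic cell without Gfra3. Gfra2 and Gfra3 were each seen in only 1 of the kinds, so the direction of each was fixed in advance. A further co-receptor of Ret, Gfra4, had 0, 0, 2 and 1 counts in the Glutamatergic cells and a count in 6 of 16 cholinergic cells. Ret itself had 5, 0, 10 and 5 counts in the Glutamatergic cells and 6 to 80 in the cholinergic cells, and did not pass the test between them (-1.68, edgeR adjusted p = 0.194). Cholinergic cells were higher than noradrenergic cells for Ret (1.55 ± 0.19 (SE), edgeR adjusted p = 4.90e-14) and Gfra2 (3.19 ± 0.26 (SE), edgeR adjusted p = 1.42e-30), and Glutamatergic cells were higher for Gfra3 (2.16 ± 0.59 (SE), edgeR adjusted p = 0.0162).

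Genes outside the lists were also called. Among those higher in Glutamatergic cells were the neurotrophin Bdnf with 1, 17, 34 and 7 counts (6.02 ± 0.65 (SE), edgeR adjusted p = 2.61e-17; a count in 3 of 16 cholinergic cells), the calcium-binding protein gene S100a13 with 15, 16, 35 and 35 counts (5.57 ± 0.55 (SE), edgeR adjusted p = 8.69e-21) and Pcp4l1 with 2, 14, 12 and 2 counts and 0 in cholinergic cells (6.61 ± 0.85 (SE), edgeR adjusted p = 7.93e-12). S100a13 had a count in 186 of 193 noradrenergic cells and in 2 of 16 cholinergic cells, of which the Ach1 P31 female a cell held 17 counts. Its pooled levels were 8.35 counts per 10000 in Glutamatergic, 0.331 in cholinergic and 3.19 in noradrenergic cells. Cyp1b1 had 2, 2, 6 and 3 counts in Glutamatergic and 0 in all other cells of the series. The rest of the 10 chosen by size were the water channel Aqp1, Tusc5, Sulf1, Mpped1, Tmem158 and Prdm12, with log2 fold changes from 5.12 to 5.54. On the cholinergic side Pdlim3, which encodes a PDZ and LIM domain protein, was seen in 14 of 16 cholinergic, 0 of 4 Glutamatergic and 5 of 193 noradrenergic cells (-6.48 ± 1.22 (SE), edgeR adjusted p = 2.98e-05). Emr1, Slc24a2, Rian, Rnf41 and Dmkn also had 0 counts in the Glutamatergic cells and a count in 12 to 14 cholinergic cells, and Casz1, Gda, Rasgrf2 and Rerg had a count in 1 Glutamatergic cell, the P33 female cell. Most of these genes were also common in noradrenergic cells: Emr1 had a count in 140, Rian in 169, Rnf41 in 156, Dmkn in 100, Casz1 in 146, Rasgrf2 in 111 and Gda in 176 of the 193 noradrenergic cells, and Slc24a2 in 45 and Rerg in 66. These 9 had edgeR adjusted p-values from 3.52e-05 to 0.0493. Gda, the guanine deaminase, had 7 counts in that cell and was the most abundant of them, with pooled levels of 9.82 counts per 10000 in cholinergic and 8.33 in noradrenergic cells.

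**Figure D4:**
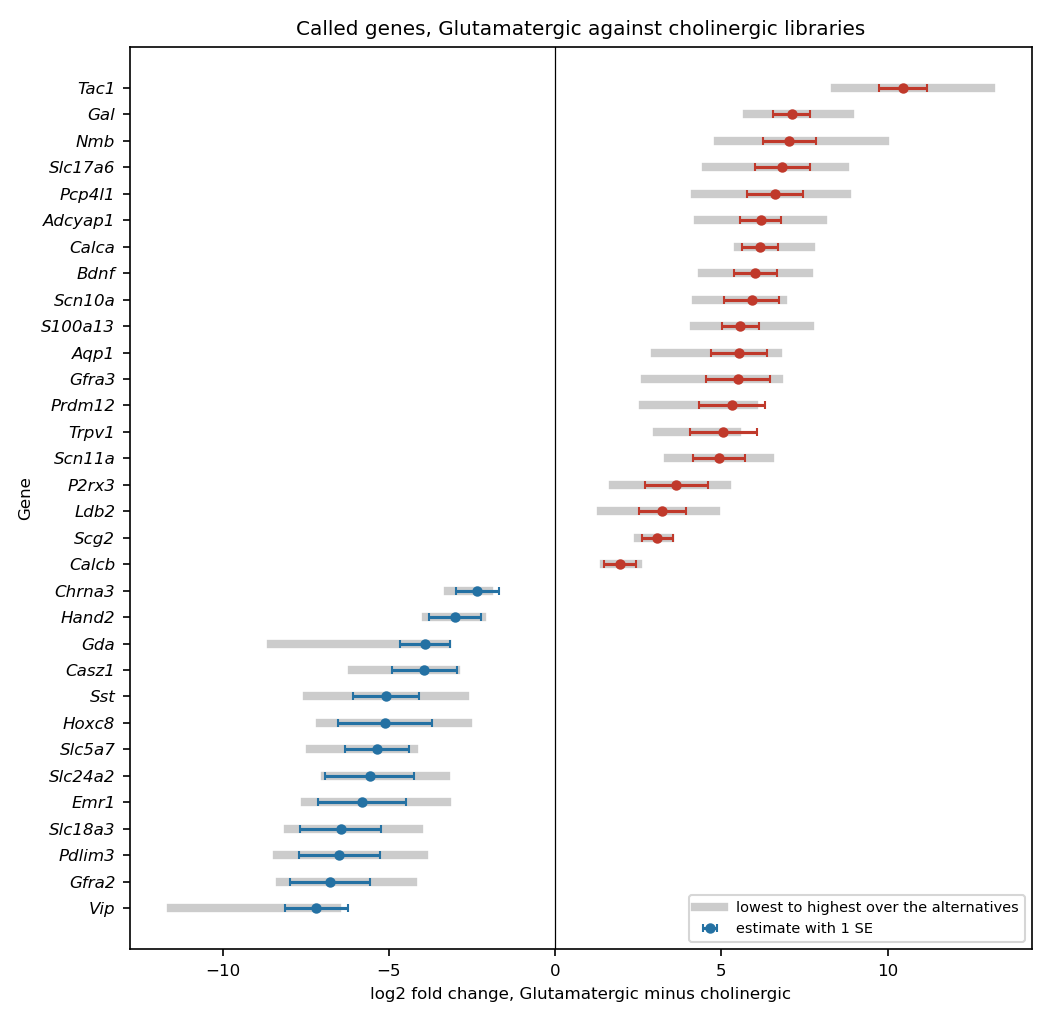
Log2 fold change (Glutamatergic minus cholinergic, horizontal axis) of called genes, with 1 SE as a line and, in grey, the lowest to highest value over the alternative fits. Tac1 at 10.46 is the highest and Vip at -7.18 the lowest of the genes drawn, and all genes drawn stay on 1 side of 0 in every alternative. For genes with a count in only 1 kind this side was fixed in advance.

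By detection in single cells, 12 of the 16188 genes with a count in the series (0.0741%) were present in 4 of 4 Glutamatergic and 0 of 16 cholinergic cells, and 44 (0.272%) in at least 12 cholinergic and 0 Glutamatergic cells. The groups are of unequal size, and a gene of low level can be missed in 4 cells, so these counts are a description. Genes shared by both kinds were rare under the rule used. Only 4 of 16188 genes (0.0247%) had a count in at least 3 of 4 Glutamatergic, at least 12 of 16 cholinergic and at most 10% of noradrenergic cells: Cartpt, Rbfox3, Grin3a and Runx1. Rbfox3, the neuronal splicing factor NeuN, had 4, 5, 8 and 3 counts in Glutamatergic cells, a count in 14 of 16 cholinergic cells and a count in 5 of 193 noradrenergic cells. Grin3a, a subunit of NMDA receptors, had 1, 1, 11 and 0 counts, a count in 14 of 16 and a count in 14 of 193, and it overlaps Ppp3r2 on the same strand. Runx1, a factor of nociceptor development, had 12, 0, 9 and 1 counts, a count in 12 of 16 and a count in 15 of 193, and was higher than in noradrenergic cells by 5.23 ± 0.62 (SE) in Glutamatergic (edgeR adjusted p = 1.97e-14) and by 3.09 ± 0.52 (SE) in cholinergic cells (edgeR adjusted p = 2.69e-07). Between the kinds none of these 4 passed the test, with edgeR adjusted p-values of 0.131 (Runx1) to 0.995 (Cartpt). Of 22 neuropeptide precursors with a count in the series, 1 met the same rule (4.55%).

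Few genes of secretion and excitability were called between the kinds. Scg2, a granin of dense-core vesicles, was the 1 called gene of 11 granins and processing enzymes. It had 12, 43, 20 and 95 counts in Glutamatergic cells and stood at 0 to 7.76 (median 1.09) counts per 10000 in cholinergic cells (3.08 ± 0.45 (SE), edgeR adjusted p = 7.93e-09), and its call was lost with limma voom (adjusted p = 0.111). Glutamatergic cells did not pass the test against noradrenergic cells for Scg2 (0.16, edgeR adjusted p = 0.891), and cholinergic cells were lower (-2.80, edgeR adjusted p = 1.23e-27). None of 22 genes of vesicle release, 15 sodium, HCN and calcium channels (Scn10a and Scn11a, called above, were counted with the sensory genes), 12 adrenergic, muscarinic and peptide receptors, or 10 filament genes was called by edgeR or by DESeq2, beside 1.15% of all genes higher and 0.42% lower. At an unadjusted p under 0.05 in edgeR there were 2, 3, 7 and 1 of these, and the median of the receptor list was -1.65. Htr3a, an ionotropic serotonin receptor subunit, had 1, 3, 0 and 55 counts in the Glutamatergic cells, a count in all 16 cholinergic cells at 15.3 ± 4.57 counts per 10000 (SD, n = 7), and did not pass the test between the kinds (-1.67, edgeR adjusted p = 0.196). Without the P33 female cell the median of the receptor list was -3.89, beside -0.23 for all genes. In that fit 2 of the 12 receptor genes were lower in Glutamatergic cells, beside 53 of all 7655 genes tested. These 2 were Htr3a (-4.79, edgeR adjusted p = 1.36e-04) and its partner subunit Htr3b (-4.03, edgeR adjusted p = 0.0132). The galanin receptor Galr1 had 1, 4, 0 and 1 counts in Glutamatergic cells and 0 in all other cells, and was not tested. Of 3 Hox genes tested, Hoxc8 was lower in Glutamatergic cells, with 0 counts against a count in 13 of 16 cholinergic cells (-5.12, edgeR adjusted p = 0.0253). Its call was lost in 14 of 23 alternatives, and it overlaps Hoxc5 on the same strand.

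Markers of other cell types were set beside these results. The 17 genes of satellite glia and Schwann cells with a count summed to 15.3 to 53.5 counts per 10000 in the 4 Glutamatergic and 5.28 to 66.1 in the 16 cholinergic cells, with a median of 6.56 in noradrenergic cells, and 0 of 13 tested were called between the kinds by edgeR or DESeq2 (2 at an unadjusted p under 0.05 in edgeR). Fibroblast markers reached 6.01 in Glutamatergic and 19.2 in cholinergic cells, and macrophage and red blood cell markers were at 0 in all 4 Glutamatergic cells. Immediate-early and stress genes had a median of 84.6 in Glutamatergic, 58.6 in cholinergic and 50.2 in noradrenergic cells. Between the kinds 0 of 19 were called by edgeR or DESeq2, and 1 of 19 had an unadjusted p under 0.05 in edgeR. Of their log2 fold changes 15 of 19 were above 0, beside 3776 of all 7856 genes. Of all genes, edgeR called 1.15% higher and 0.42% lower between the kinds, so 0 calls among 13 glial or 19 such genes is near those shares. Against noradrenergic cells, where 1.62% of all genes were called higher in Glutamatergic and 2.17% in cholinergic cells, 2 of 21 immediate-early and stress genes were higher in Glutamatergic cells (Jun and Btg2) and 2 in cholinergic cells (Ier3 and Atf3). Of 16 glial genes 0 were called in Glutamatergic cells and 2 were higher in cholinergic cells (Pmp22 and Sostdc1). Of 8 axon injury genes 3 were higher in Glutamatergic cells (Flrt3, Cebpd and Lifr), and in cholinergic cells 2 were higher (Lifr and Tnfrsf12a) and 1 was lower (Ecel1). The part of glial RNA or of the stress of dissociation in the differences from noradrenergic cells was not tested. The peptide difference was also seen within the 2 shared title numbers. The Glutamatergic P29 male a cell held 189 counts of Calca and 154 of Tac1, and the Ach2 P29 male a and b cells of the same number held 1 and 2 of Calca and 0 of Tac1. The Glutamatergic P29 male b cell held 325 counts of Calca and 24 of Tac1, and the Ach2 P29 male d cell of its number held 0 of both.

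Over the 1000 most variable genes, each cell was set against the mean profile of each identity made from cells of other collections. The Glutamatergic P29 male a, P29 male b and P31 female cells were nearest the Glutamatergic profile, with Spearman's rho of 0.683, 0.656 and 0.751, and the second nearest was Ach2 in all 3 (0.559, 0.519 and 0.557). The P33 female cell was nearest Noradrenergic1 (0.747), with 0.654 to Ach1 and 0.541 to the Glutamatergic profile. Of the 16 cholinergic cells, 15 were nearest an Ach1 or Ach2 profile. The exception was the Ach1 P31 female a cell, nearest Noradrenergic2 (0.794 against 0.624 to Ach1). These values are descriptions over genes, which are no independent replicates, and the profiles differ in how many cells they average.

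**Figure D5:**
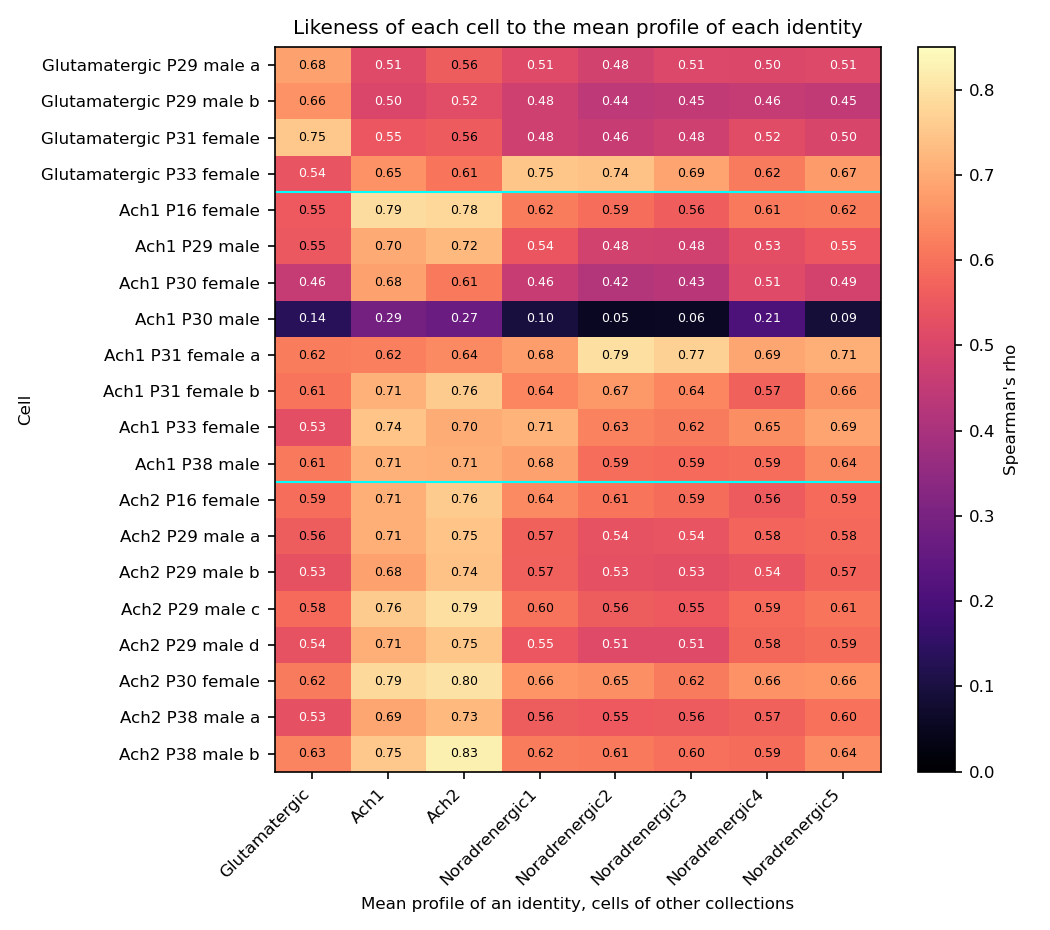
Spearman's rho between each of the 20 cells (vertical axis) and the mean profile of each identity made from cells of other collections (horizontal axis), over the 1000 most variable genes. The first 3 Glutamatergic cells are highest for the Glutamatergic profile (0.656 to 0.751), whereas the P33 female cell is highest for Noradrenergic1 (0.747).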

How the data were processed

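The authors deposited 1 table of raw counts, whole numbers over 16892 genes and 298 cells, and 16188 of the genes had a count. Reads were placed on mm10, per the submitters' processing notes. Which aligner and counter were used, whether strand was used and whether molecules were collapsed were not given in the sources used here. Cells were grouped by the celltype identifier in the labels, and the collection (sex and age) was the replicate. No 2 columns were identical.

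Counts were summed per identity and collection. For Glutamatergic against cholinergic cells, genes with at least 10 counts in the 20 cells and a count in at least 3 of them were tested (7856 genes, 14 libraries). For each kind against noradrenergic cells, all 44 libraries of named identities were fitted with the collection as a block, over genes with at least 20 counts and a count in at least 3 libraries (11555 genes). Both fits used edgeR 4.0.16 in R 4.3.3: TMM scaling, robust quasi-likelihood, two-sided tests, Benjamini-Hochberg adjustment over all genes tested and a call at an adjusted p under 0.05. The contrasts weighted identities equally. The SE is the absolute log2 fold change divided by the square root of F. A fold against a group without a count was computed against 3 counts over that group. An exact sign-flip test over the 3 collections with both kinds cannot go below p = 0.25, so none is given. DESeq2 1.42.0 and limma 3.58.1 were alternatives. Thinning drew 13927 counts per cell, which left out 2 noradrenergic and 12 Unclassified cells.

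The genes and the 24 lists (365 genes, 346 in the table) were chosen with earlier results of these data known. Named were the 5 markers, all peptide and transmitter genes with a count in the 20 cells, up to 5 called genes of each other list, the 10 with the largest log2 fold change in each direction outside the lists, and genes shared by or exclusive to a kind by detection. Pou4f1, Pou4f3, Isl2, Chrna6, Chrnb3, Galr1, Scn9a, Htr3a, Htr3b and Phox2a and a few further list members were added after their values were seen. Some list members are not reported here. On simulated counts the first comparison recovered 31% of 100 genes changed by 2 and 62% of 100 changed by 4 on the log2 scale, with 1 unchanged gene called among 7856. For Glutamatergic against noradrenergic cells these were 27% and 72%, with 7 unchanged genes called among 11555. The changed genes were drawn from those with an expected count above 1 in a library of median size. No shared collection effect and no difference among the other identities was simulated. Recovery of genes with fewer counts was therefore not measured. Promoters are from RefSeq (GRCm38.p6).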

Additional observations from a re-analysis of the deposited data

Results flagged for a closer look

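Dixon's test was run on 56 sets of values in the 4 Glutamatergic, 8 Ach1 or 8 Ach2 cells. Each set was 1 gene, the total counts or the number of genes with a count. In 22 of the 56, all of them genes, the highest cell lay further from its nearest neighbour than the test at 95% allows, and chance alone gives about 1 in 20. That rate is no yardstick for values that are mostly 0: where all other cells are at 0, as for Vip, Sst, Slc5a7 and Gch1 in Glutamatergic cells, a single count is enough. All values here are counts per 10000. The Glutamatergic P33 female cell accounted for 9 of them: Gal 46.18 (others 11.7 to 15.1), Npy 108.6 (0 to 1.33), Th 25.44 (0 to 1.33), Dbh 14.87 (0 to 1.38), Slc18a2 10.18 (0 to 0.691), Gch1 1.174 (0 in the others), Maoa 8.806 (0.691 to 1.77), Maob 9.002 (0 to 0.887) and Sst 0.1957, a single count. In the other Glutamatergic cells, Vip reached 2.661 in P29 male a, and Slc5a7 reached 0.5462 in P29 male b, a single count.

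The Ach1 P31 female a cell was the highest Ach1 cell for Gal at 1.338, Npy at 156.9, Slc18a2 at 7.495, Slc6a2 at 16.86, Maoa at 11.51 and Maob at 6.96, where the other Ach1 cells reached 0.31, 0.718, 1.44, 4.98, 3.68 and 0.605. Among Ach2 cells the P30 female cell had the most Calca (7.804) and Vip (135.4), the P16 female cell the most Npy (23.29), and the P38 male a cell the most Slc18a2 (4.085) and Slc6a2 (6.537). No value was removed for this from the comparisons, and the counts without the Glutamatergic P33 female and Ach1 P31 female a cells are given beside the results they change.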

How the results depend on the processing

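Between Glutamatergic and cholinergic cells, where 123 genes were called, filterByExpr gave 26 calls of 1160 tested (25 of them among the 123), DESeq2 38 (37), the replicate block of collections in the 20 cells 51 (44), thinned cells 52 of 5085 tested (46), and the 3 collections with both kinds 78 (72). Leaving out a collection or a Glutamatergic cell gave 41 to 138. The counts were 128 with RLE, 179 with no filter on low counts, 105 with limma voom and 175 with a replicate block over all identities. Deviations of the 2 kinds from their means correlated within collections at 0.135 (P29 male), -0.209 (P31 female) and 0.149 (P33 female). Each value rests on 1 or 2 Glutamatergic cells, so it cannot decide whether the collections pair the libraries. Against noradrenergic cells the 304 calls of Glutamatergic cells became 141 of 2633 tested with filterByExpr and 91 to 360 without a collection, and the 528 of cholinergic cells became 298 and 348 to 530. Without the replicate block they were 260 and 617, and without the Glutamatergic P33 female and Ach1 P31 female a cells, a choice made after seeing the data, 376 and 629 (135 between the kinds). No called gene named by the rule changed direction (43, 51 and 68 genes), but a gene with a count in only 1 of the compared kinds could not change it. The cause of these changes was not tested beyond the fewer genes or samples that filters, thinning and left-out collections leave. With 4 Glutamatergic cells in 3 collections, many genes of a few counts were not tested, and a gene without a count is not shown to be absent.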
